A study of Mus musculus with 6 samples.

Results

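Foxp3, Il2ra, Ikzf2, Ikzf4, Tnfrsf4, Tnfrsf18, Il10, Ebi3 and Lrrc32 are genes by which regulatory T cells (Treg cells) are recognised or through which they restrain other immune cells. These 9 genes were taken by symbol from the 32285 genes measured, and each symbol matched 1 gene. They were followed through immune cells of mouse tumours by single-cell RNA sequencing, in which each RNA molecule captured at its 3′ end is counted once by a unique molecular identifier (UMI). Tumours came from a breast cancer line that forms brain metastases, whose name and clonal origin the labels do not give. It was injected orthotopically into the brain (BrM, 3 libraries) or into the mammary fat pad (MFP, 3 libraries) of female C57BL/6J mice aged 10-12 weeks, with no other treatment or genetic change named in the labels. From digested tumours, live nucleated cells carrying CD45, the surface protein of leukocytes, were sorted. Whether the libraries of one site stem from different mice is not stated in the labels, and the p-values below therefore speak to the variation among these libraries, part of which may be technical.

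Foxp3 is the transcription factor that defines the Treg lineage, and Ikzf2 (Helios) and Ikzf4 (Eos) are zinc finger factors that act with it. Il2ra (CD25) is the high-affinity chain of the interleukin-2 receptor, through which STAT5 is activated. Tnfrsf4 (OX40) and Tnfrsf18 (GITR) are costimulatory receptors of the tumour necrosis factor receptor family. Il10 encodes a suppressive cytokine, Ebi3 the shared chain of the cytokines IL-27 and IL-35, and Lrrc32 (GARP) the surface protein that holds latent TGF-beta on the cell. None of these roles is exclusive to Treg cells: activated T cells carry CD25 and OX40, macrophages make IL-10, and myeloid cells make EBI3.

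In the mouse genome build GRCm38 the genes lie on 7 chromosomes. Ikzf2 (chr1:69531214-69687245, minus strand) and Il10 (chr1:131019845-131024974, plus strand) share chromosome 1. Tnfrsf4 (chr4:156013843-156016612) and Tnfrsf18 (chr4:156026164-156028895) are neighbours on the plus strand of chromosome 4, 9551 bases apart. Il2ra (chr2:11642807-11693193), Lrrc32 (chr7:98489283-98502181), Ebi3 (chr17:55952640-55957022) and Foxp3 (chrX:7573644-7595245) lie on the plus strand, and Ikzf4 (chr10:128630843-128645991) on the minus strand. Counts are given per gene, so no value below separates exons or isoforms.

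Promoter sequences are shown for 3 members whose levels were distributed differently over the cell classes described next: Foxp3, held almost entirely by one class, Il2ra, highest in that class and present in several others, and Ebi3, highest in myeloid classes. RefSeq (GRCm38.p6) gave a promoter for 5 of the 9 members, and each line is the 150 bases before an annotated start, 5′ to 3′, with motif matches in capitals. For Foxp3 the start at the exon following position 7580482 of chromosome X is used (chrX:7580333-7580482), which lies within an intron of longer Foxp3 transcripts.
Foxp3: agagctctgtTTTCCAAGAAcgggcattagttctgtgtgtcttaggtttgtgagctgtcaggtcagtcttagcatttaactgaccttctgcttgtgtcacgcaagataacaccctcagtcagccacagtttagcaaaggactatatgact
Il2ra (chr2:11642642-11642791): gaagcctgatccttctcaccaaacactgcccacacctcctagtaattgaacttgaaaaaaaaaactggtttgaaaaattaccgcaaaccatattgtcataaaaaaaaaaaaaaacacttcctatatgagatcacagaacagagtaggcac
Ebi3 (chr17:55952473-55952622): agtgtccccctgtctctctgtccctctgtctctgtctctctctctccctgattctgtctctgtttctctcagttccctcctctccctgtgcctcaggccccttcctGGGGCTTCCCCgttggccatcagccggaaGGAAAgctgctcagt
Both strands were searched for the STAT motif TTCNNNGAA, the AP-1 motif TGANTCA, the NFAT motif GGAAA and an NF-kB motif of GGG and CC with 5 bases of any kind between them. The Foxp3 window held 1 STAT match and 1 NFAT match, which overlap, and 4.09% of 32851 promoters of this length held a STAT match. The other RefSeq start of Foxp3 (window chrX:7579526-7579675, not printed) held no match to any of the 4 motifs. The Ebi3 window held 2 overlapping NF-kB matches and 1 NFAT match, motifs found in 35.4% and 37.6% of promoters. AP-1 matches, present in 4.24% of promoters, were in none of these windows, and the Il2ra window held no match to any of the 4 motifs. A match is a stretch of letters and not a measured site.

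The libraries held 49518 barcodes and 359323502 UMIs, 50692794 to 70944735 per library, and 43612 cells were analysed after filtering. Pairs of libraries shared 10 to 39 barcodes. Libraries fell into 2 kinds: BrM 1, MFP 1 and MFP 2 had the lower UMI totals and 27 to 72 macrophage-like cells each, whereas BrM 2, BrM 3 and MFP 3 had the higher totals and 1876 to 2381. Both kinds occur at both sites, and values within each kind are given where they bear on a member. Clusters were rebuilt from the counts, and a cluster of 1255 cells was Treg-like: Ctla4, Tnfrsf4, Foxp3, Il2ra and Ikzf2 were among its 10 leading genes. The name was given to a T cluster with Foxp3 at 100 CPM or more. Foxp3 below that level in the other T clusters therefore follows from the rule. Since 7 of the 9 members were among the genes used for clustering, all but Tnfrsf18 and Ebi3, and 5 were listed Treg markers, the higher levels in the Treg-like cluster are a description with no test. The BrM and MFP comparison within the cluster did not enter its choice.

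Treg-like cells made up 6.84%, 9.86% and 4.26% of T cells in the BrM libraries and 6.07%, 4.32% and 10.7% in the MFP libraries. The sites overlapped, with means of 6.99% ± 2.80 (SD, n = 3) and 7.04% ± 3.31 (SD, n = 3) and an exact two-sided permutation p of 0.9, where 3 libraries against 3 cannot go below 0.1. The cells numbered 292, 260 and 126 in BrM and 215, 213 and 149 in MFP, and together held 8612879 UMIs.

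Across 19 named cell classes, 8 of the 9 members had their highest mean level in Treg-like cells, and Ebi3 did not. Levels are UMIs of the gene relative to all UMIs of the class in a library, scaled to CPM (counts per 1e+06 UMIs), averaged over libraries with at least 20 cells of the class. Foxp3 averaged 237 ± 59.9 CPM (SD, n = 6) in Treg-like cells, and the next class, a CD4 T cluster led by Il17a, had 2.63 ± 1.71 CPM (SD, n = 5). Of all 2171 Foxp3 UMIs in named classes, 2019 (93.0%) lay in Treg-like cells. The share of cells with a Foxp3 UMI was 65.3% (819 of 1255, median depth 4833 UMIs) in Treg-like cells. It was 0.121% (12 of 9889, median depth 4534 UMIs) in NK-like cells, a lineage without Foxp3, and 0.265% (17 of 6426, median depth 11346.5 UMIs) in macrophage-like cells. Lrrc32 was nearly as restricted, with 778 of 1001 UMIs (77.7%) in Treg-like cells and a mean of 100.5 ± 46.3 CPM (SD, n = 6). Type 2 conventional dendritic (cDC2-like) cells followed at 9.47 ± 12.8 CPM (SD, n = 5), an SD above the mean.

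**Figure D1:**
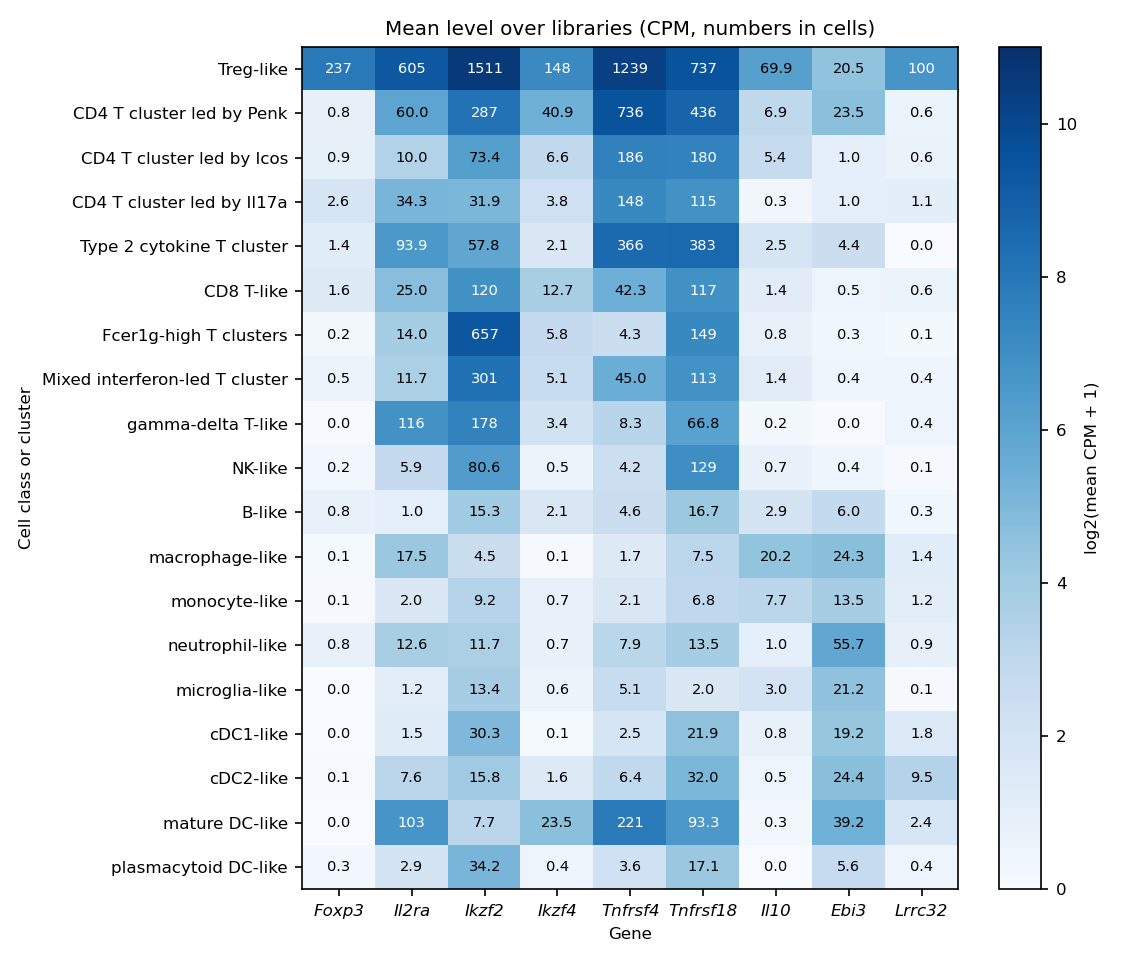
Mean level of each gene in each of 19 cell classes, coloured by log2(mean CPM + 1) and printed in CPM. Treg-like cells hold the highest value in 8 of the 9 columns, and the Ebi3 column is highest in neutrophil-like cells.

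The Ikaros family factors reached other T cells. Ikzf2 averaged 1511 ± 332 CPM (SD, n = 6) in Treg-like cells and 657 ± 54.0 CPM (SD, n = 6) in T clusters with high Fcer1g, an Fc receptor signalling chain shared with innate lymphocytes. Those clusters, being large, held 48.7% of all Ikzf2 UMIs against 21.5% in Treg-like cells. Next came a mixed T cluster led by interferon-induced genes at 301 ± 61.5 CPM (SD, n = 6) and a CD4 T cluster led by Penk at 287 ± 97.6 CPM (SD, n = 6), which overlap within their SDs. Ikzf4 averaged 148 ± 51.7 CPM (SD, n = 6) in Treg-like cells, 40.9 ± 21.2 CPM (SD, n = 6) in the Penk-led CD4 T cluster and 23.5 ± 9.199 CPM (SD, n = 3) in mature dendritic cells.

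The surface receptors followed a similar order. Tnfrsf4 stood at 1239 ± 121 CPM (SD, n = 6) in Treg-like cells and at 736 ± 103 CPM (SD, n = 6) in the Penk-led CD4 T cluster, with 39.9% and 32.4% of its UMIs. A T cluster expressing type 2 cytokines had 366 ± 37.8 CPM (SD, n = 3) and mature dendritic cells 221 ± 21.6 CPM (SD, n = 3). Tnfrsf18 averaged 737 ± 168 CPM (SD, n = 6), 436 ± 81.1 CPM (SD, n = 6) and 383 ± 28.8 CPM (SD, n = 3) in Treg-like cells, the Penk-led cluster and the type 2 cluster, and the latter pair do not differ beyond their spread. NK-like cells, at 129 ± 9.50 CPM (SD, n = 6), held 17.9% of Tnfrsf18 UMIs, close to the 18.1% of Treg-like cells. Il2ra averaged 605 ± 98.6 CPM (SD, n = 6) in Treg-like cells. Its next classes, gamma-delta T-like cells at 116 ± 16.5 CPM (SD, n = 5), mature dendritic cells at 103 ± 44.7 CPM (SD, n = 3) and the type 2 T cluster at 93.9 ± 56.3 CPM (SD, n = 3), overlap within their SDs.

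The cytokine genes were shared with myeloid cells. Il10 averaged 69.9 ± 22.4 CPM (SD, n = 6) in Treg-like cells, but macrophage-like cells, larger in number and depth, held 75.1% of its UMIs against 15.4%. In macrophage-like cells Il10 stood at 2.81, 40.2 and 28.7 CPM in BrM 1 to 3 and at 0, 0 and 49.4 CPM in MFP 1 to 3. The libraries at or near 0 were those with few macrophage-like cells. Ebi3 was highest in neutrophil-like cells at 55.7 ± 17.4 CPM (SD, n = 3) and mature dendritic cells at 39.2 ± 19.9 CPM (SD, n = 3), which overlap. Treg-like cells ranked seventh at 20.5 ± 7.55 CPM (SD, n = 6), within the spread of cDC2-like cells at 24.4 ± 9.602 CPM (SD, n = 5) and macrophage-like cells at 24.3 ± 7.33 CPM (SD, n = 6). Macrophage-like cells held 56.0% of Ebi3 UMIs and Treg-like cells 4.38%, so Ebi3 did not single out Treg-like cells among all classes. Among T, NK and B classes, Ebi3 stood at 23.5 ± 11.2 CPM (SD, n = 6) in the Penk-led CD4 T cluster, close to Treg-like cells. The other T, NK and B classes had means of 6.01 CPM or less.

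Within Treg-like cells, Foxp3 and Ikzf4 were lower in every BrM library than in any MFP library, and neither passed the test over all genes. Levels of 6 of the 9 members had a negative log2 fold change of BrM over MFP. By edgeR's quasi-likelihood test, 0 of 9 members had an adjusted p under 0.05, as against 7 of 7900 genes tested (0.0886%), and DESeq2 also called 0. At an unadjusted p under 0.05 the count was 2 of 9 members, as against 19.4% of all genes. The members' median log2 fold change was -0.24 and that of all genes tested -0.02.

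Foxp3 stood at 229.9, 192.3 and 148.5 CPM in BrM 1 to 3 and at 256.3, 312.9 and 280.8 CPM in MFP 1 to 3. The sites did not overlap, a pattern that 14.7% of all genes showed in this direction. The log2 fold change was -0.51 (SE 0.18, n = 3 per site, edgeR adjusted p = 0.167), with values of -0.50 within the libraries of higher UMI total and -0.30 within those of lower. Without cells holding UMIs of proliferation genes it was -0.23 (edgeR adjusted p = 0.681). This alternative was chosen after seeing the data and kept 657 of the 1255 cells.

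Ikzf4 stood at 142.3, 105 and 86.8 CPM in BrM 1 to 3 and at 142.8, 230.1 and 179 CPM in MFP 1 to 3. The highest BrM library and the lowest MFP library were almost level, and both belong to the lower-total kind. The log2 fold change was -0.64 (SE 0.22, n = 3 per site, edgeR adjusted p = 0.152), and it was -0.68 and -0.37 within the libraries of higher and lower UMI total. Leaving out MFP 1 gave -0.77 with an edgeR adjusted p of 0.0388, past the threshold. Ikzf2 overlapped, at 1404, 1475 and 1169 CPM in BrM and 1197, 1874 and 1947 CPM in MFP, with a log2 fold change of -0.24 (SE 0.19, n = 3 per site, edgeR adjusted p = 0.477).

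Lrrc32 stood at 65.0, 99.4 and 63.9 CPM in BrM and at 69.0, 182 and 124 CPM in MFP. MFP 1 lay among the BrM libraries and the other MFP libraries lay above them, so the sites overlapped. The log2 fold change was -0.63 (SE 0.30, n = 3 per site, edgeR adjusted p = 0.263), and without MFP 1 it was -0.92 with an edgeR adjusted p of 0.0334, again past the threshold. Without MFP 1 the number of genes called rose from 7 to 641, so these calls came with a change over the whole table.

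**Figure D2:**
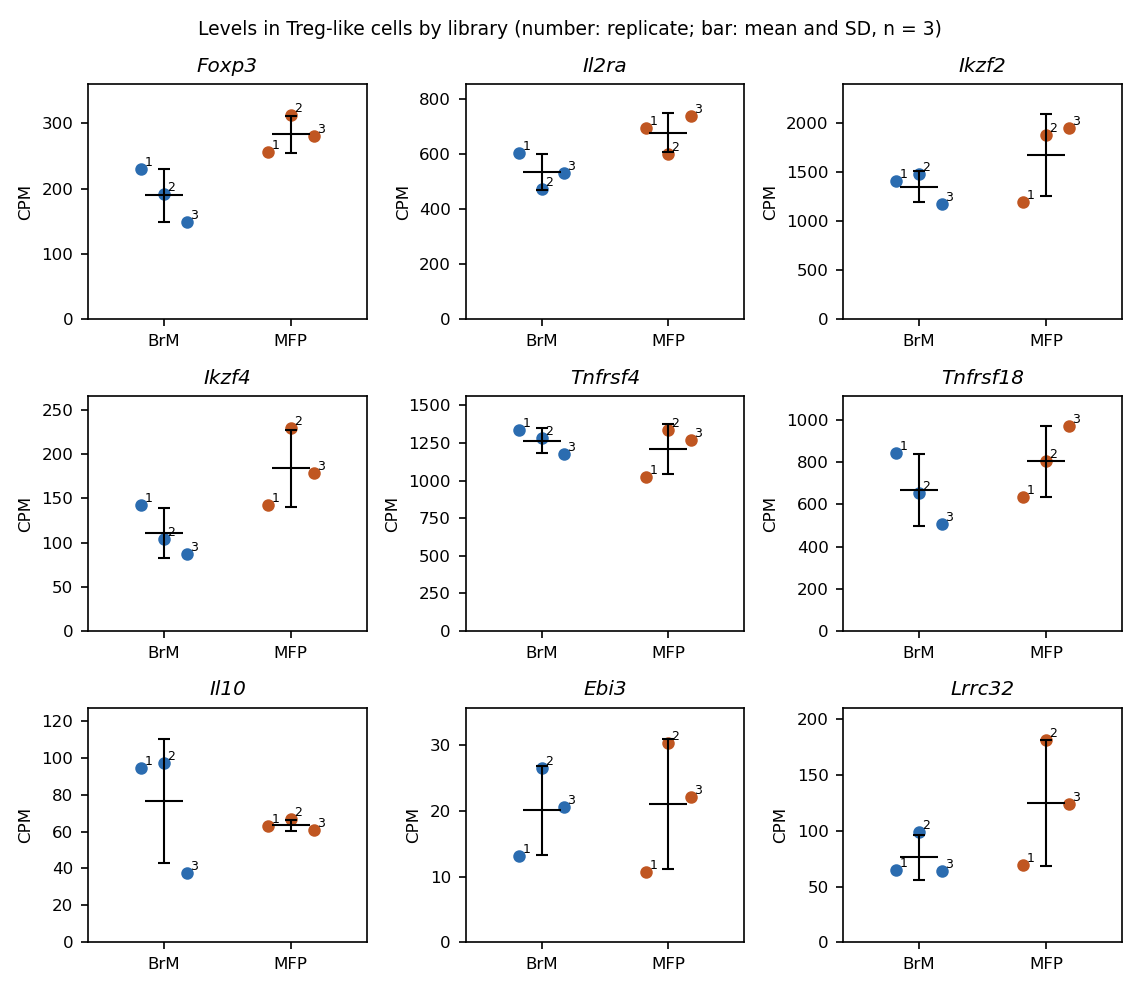
Level of each gene in Treg-like cells in CPM, with 1 point per library and a bar at each site's mean with its SD (n = 3). Foxp3 and Ikzf4 are the panels in which BrM and MFP points do not overlap.

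The receptors overlapped between sites. Il2ra stood at 601.7, 471 and 529.9 CPM in BrM and at 693, 598 and 736 CPM in MFP, with only BrM 1 reaching into the MFP range, and a log2 fold change of -0.28 (SE 0.16, n = 3 per site, edgeR adjusted p = 0.338). Tnfrsf4 was at 1339.5, 1281 and 1179 CPM in BrM and 1022, 1338 and 1272 CPM in MFP, with a log2 fold change of 0.13 (SE 0.16, n = 3 per site, edgeR adjusted p = 0.675). Tnfrsf18 was at 845, 656 and 506 CPM and at 638, 804 and 972 CPM, with a log2 fold change of -0.20 (SE 0.19, n = 3 per site, edgeR adjusted p = 0.589). For Tnfrsf18 the 2 kinds of library went opposite ways, at 0.23 within those of lower UMI total and -0.53 within those of higher.

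Il10 in Treg-like cells stood at 94.6, 96.8 and 37.7 CPM in BrM, and at 63.1, 66.6 and 60.6 CPM in MFP. The MFP libraries were close together and the BrM libraries lay on both sides of them, with a log2 fold change of 0.36 (SE 0.27, n = 3 per site, edgeR adjusted p = 0.483). Ebi3, at 13.1, 26.5 and 20.6 CPM and 10.7, 30.3 and 22.0 CPM, had a log2 fold change of 0.03 (SE 0.38, n = 3 per site, edgeR adjusted p = 0.974), the largest standard error among the members. On simulated counts for this comparison, with 7900 genes of which 200 were changed, the same test recovered 33% of 2-fold and 90% of 4-fold changes. It also made 9 false calls. The simulation gave every gene the same set spread and did not model the kinds of library, so recovery in these data may differ. The differences measured for the 9 members were all smaller than 2-fold.

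Other values of the same cells bear on these comparisons. The 7 called genes were all lower in BrM. They included the immediate-early genes Fosb (log2 fold change -1.81) and Fos (-1.65), which were picked out after their values were seen. Tissue dissociation is known to induce such genes, and whether it differed between the sites was not tested. Cells with a UMI of a proliferation gene made up 56.8%, 43.5% and 51.6% of Treg-like cells in BrM and 52.1%, 37.6% and 41.6% in MFP, which overlap. The makeup of the cluster also differed by site when it was divided into subgroups, described further on. A subgroup led by Areg and Il1rl1, with Fos also among its leading genes, was high in Foxp3 and Ikzf4. It made up 5.14%, 11.5% and 10.3% of Treg-like cells in BrM and 13.95%, 36.2% and 41.6% in MFP. A subgroup led by replication genes, low in Foxp3 and Ikzf4, made up 11.3%, 16.2% and 21.4% in BrM and 9.30%, 0.939% and 6.04% in MFP. Neither share overlapped between sites, and as Areg itself was lower in every BrM library, the first share is not independent of expression. A subgroup led by Lag3 and Gzmb, the highest in Il10, was also smaller in BrM. It made up 15.1%, 6.92% and 1.59% of Treg-like cells in BrM and 21.9%, 22.1% and 21.5% in MFP, again without overlap. The shares of the other subgroups overlapped. Summed Cd8a and Cd8b1, which mark CD8 T cells, ranged over 13.8-181 CPM in BrM and 75.7-496 CPM in MFP, overlapping, with neither gene at 0. Of 4 myeloid markers none was at 0, and their sum ranged over 11.1-233 and 8.02-228 CPM. NK markers summed to at most 22.2 CPM, B cell markers to at most 26.2 CPM and gamma-delta T markers to at most 28.8 CPM in any library. ILC2 markers summed to 110-131 CPM in BrM and 140-305 CPM in MFP, with the defining cytokines Il5 and Il13 both at 0. The part of these values, subgroup shares included, in the members' differences was not tested beyond the removal of some cells. After removing cells holding UMIs of other cell types, the log2 fold changes of Foxp3 and Ikzf4 were -0.54 and -0.63. Without cells holding UMIs of proliferation genes, that of Foxp3 was -0.23, a smaller difference than with all Treg-like cells. This alternative, chosen after seeing the data, kept 657 of the 1255 cells. The log2 fold change of Ikzf4 ranged from -0.70 to -0.37 over 13 alternative settings, this one included and those leaving out 1 library apart.

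**Figure D3:**
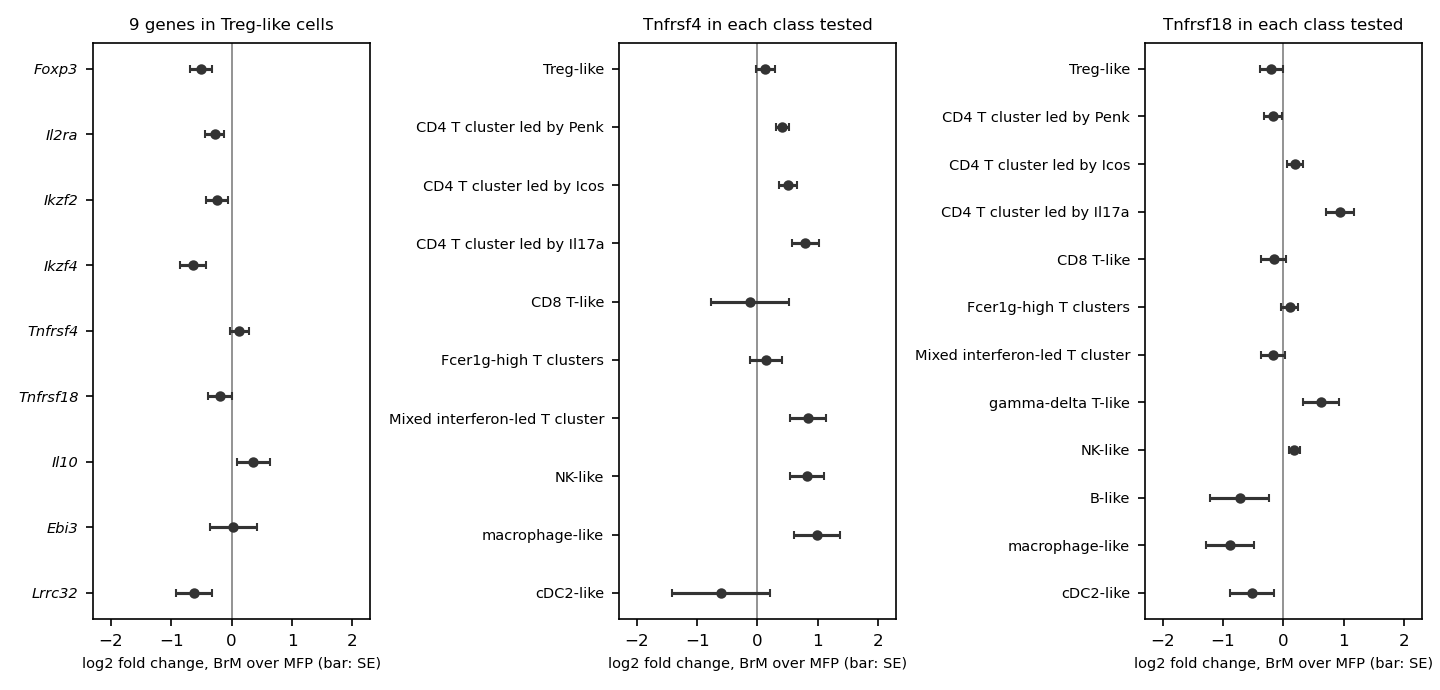
Log2 fold change of BrM over MFP for each gene in Treg-like cells (left), for Tnfrsf4 in each class tested (middle) and for Tnfrsf18 in each class tested (right), as points with bars of 1 standard error. In Treg-like cells Ikzf4, Lrrc32 and Foxp3 are the lowest points, and in the middle panel 7 of the 9 other classes lie on the positive side.

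The share of Treg-like cells with a UMI of a member depends on depth, so it was also taken after thinning each cell to 2000 UMIs, which kept 1144 of the 1255 cells. Before thinning, Ikzf2 was seen in 92.8% of Treg-like cells, Tnfrsf4 in 90.0%, Tnfrsf18 in 88.6% and Il2ra in 75.1%. Ikzf4 was seen in 46.3%, Lrrc32 in 35.4%, Il10 in 20.1% and Ebi3 in 10.1%. In B-like cells (median depth 3503 UMIs) these shares were 1.79% for Ikzf2, 1.79% for Tnfrsf4, 4.51% for Tnfrsf18, 0.658% for Il2ra, 0.376% for Ikzf4, 0.188% for Lrrc32, 0.282% for Il10 and 1.88% for Ebi3. After thinning, Il2ra was found in 57.5%, 50.9% and 47.3% of BrM cells and in 62.6%, 58.6% and 61.2% of MFP cells. Ikzf4 was found in 21.4%, 18.8% and 20.5% of BrM cells and in 25.1%, 38.7% and 27.9% of MFP cells. For these 2 genes the sites did not overlap, as for 8.8% of all genes in this direction and 6.67% in the other, at the smallest exact two-sided permutation p of 0.1 that this design allows. The other 7 members overlapped; for Foxp3 the unthinned shares were 78.1%, 55.4% and 53.2% in BrM and 76.3%, 62.4% and 55.7% in MFP, highest in the library of each site whose Treg-like cells had the highest median depth (6640 and 6410 UMIs).

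**Figure D4:**
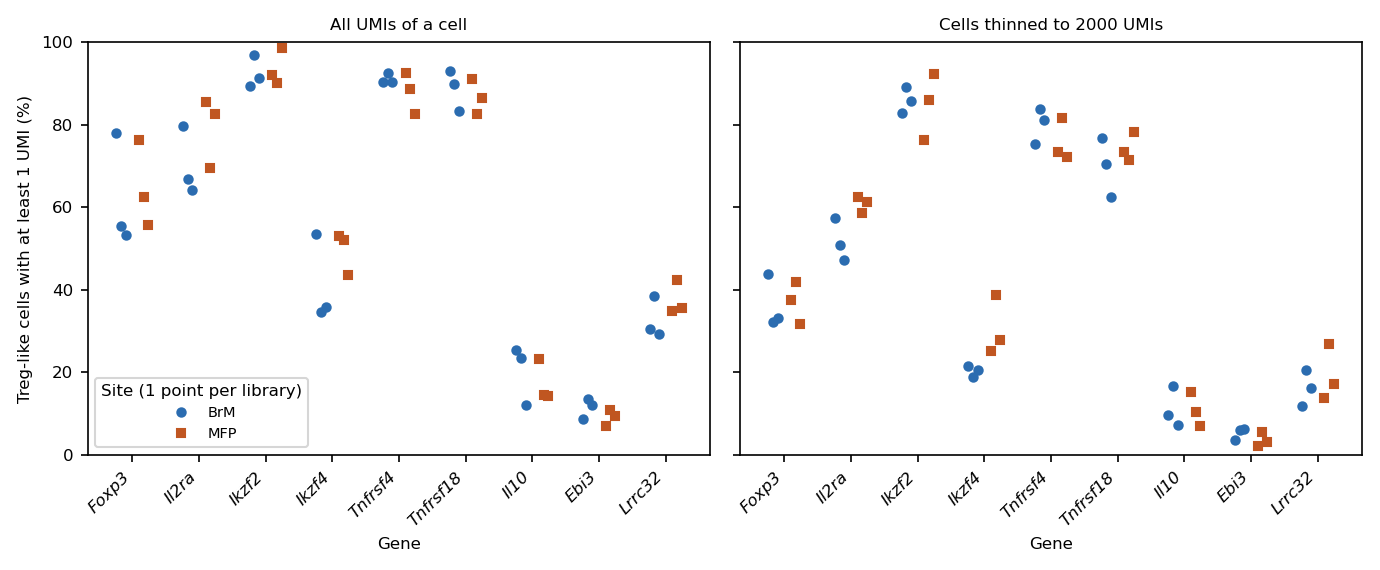
Percent of Treg-like cells with a UMI of each gene, from all UMIs of a cell (left) and after thinning to 2000 UMIs (right), 1 point per library. In the right panel Il2ra and Ikzf4 are the genes whose BrM points all lie below the MFP points.

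Cells of the cluster usually carried several members at once. After thinning, 682 of 1144 Treg-like cells (59.6%) held UMIs of 4 or more of the 9 genes, with a median of 4. In the Penk-led CD4 T cluster this share was 3.58%, the highest outside Treg-like cells. A rule that takes T cells with a Foxp3 UMI, in any cluster, gave 899 cells. In those cells the log2 fold change of BrM over MFP was -0.02 for Il2ra, -0.56 for Ikzf4, -0.52 for Lrrc32 and 0.61 for Il10, with edgeR adjusted p from 0.308 to 0.967 over these 4; Foxp3 itself is not read there because it chose the cells.

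In the other classes the members were tested where their counts passed the low-count filter, in 52 pairs of a gene and a class over 12 classes. By edgeR's quasi-likelihood test 0 of the 52 had an adjusted p under 0.05, 19 had an unadjusted p under 0.05, and DESeq2 called 3. The share of all genes called was 4.79% in the Penk-led CD4 T cluster, 4.45% in macrophage-like cells, 0.97% in monocyte-like cells, 0.363% in the Il17a-led and 0.14% in the Icos-led CD4 T cluster, 0.353% in gamma-delta T-like cells and 0.0094% in NK-like cells. It was 0% in CD8 T-like, B-like and cDC2-like cells, in the Fcer1g-high T clusters and in the mixed T cluster. The share of all genes with an unadjusted p under 0.05 was 27%, 11.6% and 7.69% in the Penk-led, Icos-led and Il17a-led CD4 T clusters, 4.69% in CD8 T-like cells, 7.89% in the Fcer1g-high and 8.58% in the mixed T clusters, and 10.2% in gamma-delta T-like cells. It was 11.1% in NK-like, 15.5% in macrophage-like, 13% in monocyte-like, 6.74% in cDC2-like and 7.01% in B-like cells. Within the libraries of higher or lower UMI total, 7 and 10 pairs were called, from fits in which 1 site had a single library.

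Fits over both kinds of library tested Tnfrsf4 in 9 other classes. It was higher in BrM at an unadjusted p under 0.05 in 6 of the 9, and lower in none. Among these, macrophage-like and NK-like cells held little Tnfrsf4, at means of 1.73 and 4.21 CPM and in 2.05% and 1.88% of cells. The classes were drawn from the same libraries, so they are not independent of each other. Directions differed within the libraries of lower UMI total, where BrM had a single library. There the log2 fold change of Tnfrsf4 was -2.07 in CD8 T-like cells, 0.48 in the Penk-led CD4 T cluster and 0.85 in NK-like cells. Of all genes, the share higher in BrM at that threshold was 6.41% in the Icos-led, 15% in the Penk-led and 3.44% in the Il17a-led CD4 T cluster, 4.29% in the mixed T cluster, 6.53% in NK-like and 4.5% in macrophage-like cells. In the Penk-led CD4 T cluster it stood at 870.5, 861 and 705 CPM in BrM and at 673, 627 and 682 CPM in MFP, without overlap. Its log2 fold change there was 0.41 (SE 0.11, n = 3 per site, edgeR adjusted p = 0.0538), and DESeq2 gave an adjusted p of 0.0332. In the Icos-led CD4 T cluster the values were 177, 218 and 254 CPM against 150.5, 142 and 176 CPM, with a log2 fold change of 0.50 (SE 0.15, n = 3 per site, edgeR adjusted p = 0.266) and, without BrM 1, 0.67 (edgeR adjusted p = 0.0438). The Il17a-led CD4 T cluster had 161, 202 and 175 CPM in BrM and 111 and 91.1 CPM in MFP 1 and 2, MFP 3 being left out with 6 cells, and a log2 fold change of 0.79 (SE 0.22, edgeR adjusted p = 0.168). In each of the 3 CD4 T clusters every BrM library was above every MFP library tested. Taken singly, this held for 8.68% of genes in the Icos-led and 10.9% in the Penk-led cluster. It held for 11.6% in the Il17a-led cluster, where MFP 3 was left out. The share of genes for which it held in all 3 clusters at once was not computed.

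Whether the difference for Tnfrsf4 in these CD4 T cells differed from that in Treg-like cells was tested directly. Against the sum of the 3 CD4 T clusters, whose Tnfrsf4 levels and proportions differ, the interaction of class and site was -0.10 (SE 0.22, edgeR adjusted p = 1). Against single clusters it was -0.34 (SE 0.19, edgeR adjusted p = 0.726) for the Icos-led and -0.22 (SE 0.14, edgeR adjusted p = 1) for the Penk-led one. Over all genes 1 of 9489 (0.0105%) passed this test, Ifitm3, named here after its value was seen; no member did by edgeR, and 2 members, Ikzf4 and Lrrc32, had an unadjusted p under 0.05 as against 4.57% of genes. The Ikzf4 interaction was 0.72 (SE 0.33, edgeR adjusted p = 1), and against the Penk-led cluster alone it was 0.50 (SE 0.31, edgeR adjusted p = 1). In the Penk-led CD4 T cluster Ikzf4 stood at 40.5, 9.42 and 22.6 CPM in BrM against 56.0, 52.2 and 64.9 CPM in MFP, without overlap, as held for 22.2% of genes there. That difference, a log2 fold change of -1.05 (SE 0.33, n = 3 per site), had an edgeR adjusted p of 0.0842 and a DESeq2 adjusted p of 0.0233. Without BrM 1 it was -1.53 (edgeR adjusted p = 0.00572). The Lrrc32 interaction, -1.43 (SE 0.66, edgeR adjusted p = 1), rests on CD4 T cells with few Lrrc32 UMIs.

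Larger values for other members, none past edgeR's adjusted p, lay in single classes. Tnfrsf18 in the Il17a-led CD4 T cluster was at 168, 139 and 113 CPM in BrM and 73.0 and 80.4 CPM in MFP 1 and 2, with a log2 fold change of 0.94 (SE 0.23, edgeR adjusted p = 0.0771). Il2ra in CD8 T-like cells was at 8.39, 21.9 and 11.6 CPM in BrM and 45.4, 38.7 and 23.8 CPM in MFP, without overlap (as for 7.34% of genes), yet with an edgeR adjusted p of 0.918. In NK-like cells Ikzf2 was at 65.8, 119 and 116 CPM in BrM and 51.2, 63.1 and 68.4 CPM in MFP, where BrM 1 overlapped MFP. Its log2 fold change was 0.75 (SE 0.22, n = 3 per site, edgeR adjusted p = 0.320), DESeq2 gave an adjusted p of 0.0201, and without BrM 1 the edgeR value was 1.05 (adjusted p = 0.00428). In CD4 T cells Ikzf2 had negative values that passed under some settings. Without BrM 3 it was -1.33 in the Icos-led (edgeR adjusted p = 0.00794) and -2.37 in the Il17a-led cluster (edgeR adjusted p = 0.041). In the latter it was -2.77 with library kind as a term (edgeR adjusted p = 0.000124). The Il17a-led cluster held few Ikzf2 UMIs, 86 in 57 cells, at a mean of 31.9 ± 17.9 CPM (SD, n = 5). Its fit without BrM 3 used 4 libraries. The Icos-led cluster averaged 73.4 ± 36.6 CPM (SD, n = 6). Il2ra in macrophage-like cells had a log2 fold change of -0.66 (edgeR adjusted p = 0.157), and without MFP 1 it was -0.76 (edgeR adjusted p = 0.0093).

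Genes that work with the members were read in Treg-like cells from 6 lists. No gene of any list rose or fell by edgeR's adjusted p, where 0.0886% of all genes were called. Of all 7900 genes tested, 4103 had a negative log2 fold change and 19.4% an unadjusted p under 0.05. All 11 measured IL-2 receptor signalling genes of 12 listed had a negative log2 fold change, with a median of -0.37, and 4 an unadjusted p under 0.05. Cish, a feedback inhibitor induced by STAT5, stood at 182, 161 and 156 CPM in BrM and 227, 267 and 266 CPM in MFP, with a log2 fold change of -0.54 (SE 0.16, n = 3 per site, edgeR adjusted p = 0.127). Socs2, another STAT5 target, had -0.64 and the survival gene Bcl2 -0.54. The sites did not overlap for any of these 3 genes, a pattern that 14.7% of all genes showed in this direction. In this list and those below, the genes named are the 3 with the largest absolute log2 fold change. Lack of overlap is more likely among genes so chosen.

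Of 14 genes of GARP and TGF-beta activation and response, 13 were measured, 11 with a negative value, 9 with an unadjusted p under 0.05 and a median of -0.55. Furin, a protease that cleaves the TGF-beta precursor, stood at 76.1, 46.5 and 38.8 CPM in BrM and 106, 107 and 136 CPM in MFP. Its log2 fold change was -1.002 (SE 0.23, n = 3 per site, edgeR adjusted p = 0.109). Itgb8, the integrin chain that releases TGF-beta from GARP, had -0.88 with overlapping sites, and the signal transducer Smad3 had -0.88 without overlap.

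Among Foxp3 partners and T cell fate factors, 25 of 27 were measured, 17 with a negative and 8 with a positive value, 5 with an unadjusted p under 0.05 and a median of -0.33. Myb had 0.97 (SE 0.30, n = 3 per site, edgeR adjusted p = 0.141), and its sites overlapped at 79.97, 56.8 and 92.5 CPM in BrM against 59.4, 24.2 and 30.3 CPM in MFP. Gata3 had -0.79 without overlap, and Id3 had -0.74 with overlapping sites. Of 23 effector and surface genes, 22 were measured, 17 of them negative and 8 with an unadjusted p under 0.05, with a median of -0.36. Areg, a growth factor made by tissue Treg cells, stood at 207, 264 and 228 CPM in BrM and 301, 718 and 515 CPM in MFP. Its log2 fold change was -1.07 (SE 0.25, n = 3 per site, edgeR adjusted p = 0.109). The IL-33 receptor gene Il1rl1 had -0.93 with overlapping sites, and the integrin gene Itgae had -0.79 without overlap.

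The TNF receptor list had 10 of 13 genes measured, 7 negative, 2 with an unadjusted p under 0.05, and a median of -0.28. Its largest values were -0.91 for the ligand gene Tnfsf9, -0.56 for the receptor gene Tnfrsf1b and -0.38 for the receptor gene Tnfrsf9. The sites overlapped for Tnfrsf1b and Tnfrsf9 and not for Tnfsf9. The list of IL-10, IL-27 and IL-35 partners had 8 of 11 measured, 6 negative, 3 with an unadjusted p under 0.05, and a median of -0.35. The IL-10 receptor chains Il10ra and Il10rb had -1.17 and -0.56, and the transducer Stat3 had -0.51. The sites overlapped for Il10rb and not for Il10ra and Stat3. In all 6 lists the median lay below the -0.02 of all genes. The lists were chosen with earlier results of these data known, and no list was tested as a set.

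Treg-like cells were divided into 9 subgroups with the members left out of the genes used, so that member levels could be read across them. A subgroup of 227 cells led by Areg, Il1rl1 and Cd83 had Ikzf2, Ikzf4, Tnfrsf4, Tnfrsf18 and Lrrc32 above the remaining Treg-like cells in 6 of 6 libraries. Its mean over libraries was 2287 CPM for Ikzf2 against 1382 CPM in the remaining cells, and 244 against 131 CPM for Ikzf4. A subgroup of 133 cells led by the replication genes Hist1h1b, Pclaf and Rrm2 lay at the other end. Foxp3 averaged 143 CPM there against 239 CPM in the other cells, Ikzf2 825 against 1590 CPM and Lrrc32 30.8 against 102 CPM, each lower in 4 of 4 libraries with enough cells.

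Il10 followed a different order. It was highest in 190 cells led by Lag3, an inhibitory receptor gene, and the granzyme gene Gzmb, at a mean of 172 CPM against 61.5 CPM in the other cells, higher in 5 of 5 libraries. Cells led by the interferon-induced genes Ifit1, Ifit3 and Rsad2 (135 cells) had 142 against 63.9 CPM, higher in 6 of 6 libraries. In the Areg-led subgroup Il10 was lower than in the other cells in 4 of 6 libraries, at 40.5 against 75.2 CPM. A subgroup of 210 cells led by Klf3, Emb and Serpinb1a was lower in Il2ra (353 against 606 CPM) and Tnfrsf4 (796 against 1289 CPM) in 5 of 5 libraries. Tnfrsf4 was highest in 153 cells led by Bmyc, Gzmb and Il1r2, at 1883 against 1112 CPM and higher in 5 of 5 libraries.

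A subgroup led by Cd8a, Ifitm1 and Cd8b1 (51 cells, of which 31 came from MFP 1) kept Foxp3, at 286 CPM against 227 CPM over the 2 libraries with enough cells, but had Ikzf2 at 626 against 1466 CPM. In the whole cluster 188 cells (14.98%) held a Cd8a or Cd8b1 UMI, 31.2% in MFP 1 and 6.85-19.2% elsewhere, and 147 of them also held a Foxp3 UMI. In cells with such a UMI, Il10 averaged 21.0 ± 22.1 CPM (SD, n = 6) against 83.6 ± 24.2 CPM (SD, n = 6) in those without, lower in 6 of 6 libraries, and Foxp3 averaged 243 and 240.5 CPM. A further subgroup, led by Apoe, Plac8 and H2-Aa, genes of myeloid cells, came mostly from BrM 2 (84 of 120 cells) and had Il10 at 172 CPM over its pooled cells and at 35.2 and 215 CPM in the 2 libraries with enough cells, and 36 cells led by Lgals7, Ifng and Ccl1 made up the last.

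**Figure D5:**
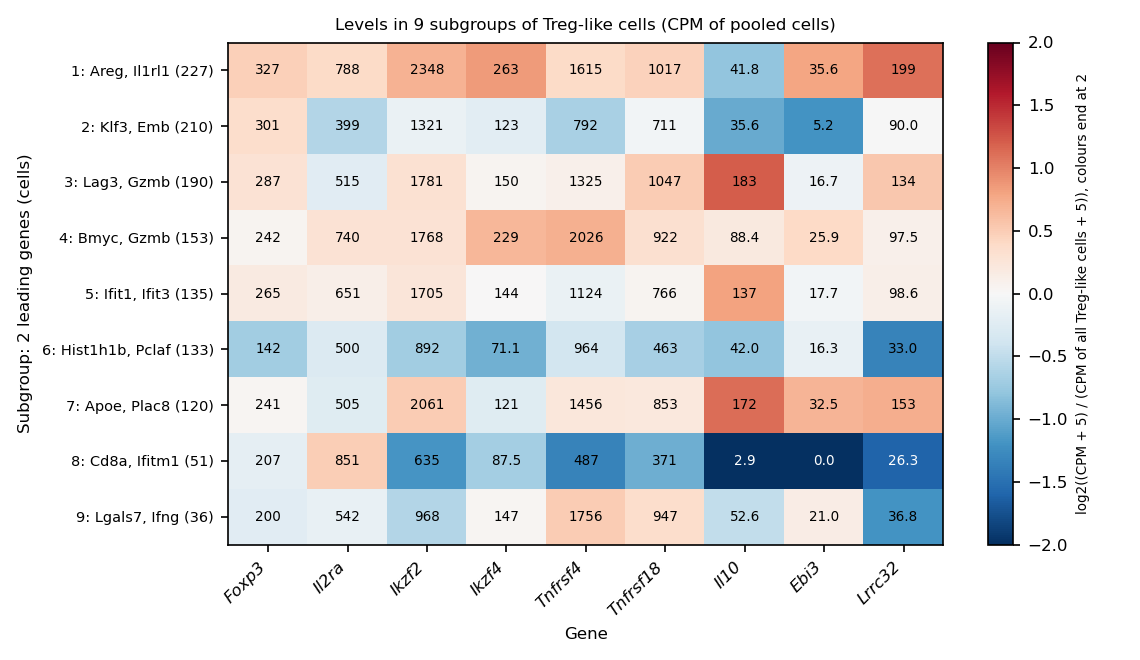
Level of each gene in 9 subgroups of Treg-like cells, as CPM of pooled cells printed in the field, with colour giving the log2 ratio to all Treg-like cells. The Areg-led subgroup is high for the Ikaros factors and Lrrc32, and the replication-led subgroup is low for them. Il10 is high in the Lag3-led and interferon-led subgroups. It is also high in the pooled Apoe-led cells, but there it was above the other cells in only 1 of 2 libraries with enough cells.

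The genes most like each member were those with the highest Pearson r over the mean levels of the 19 classes, among 8394 genes. These are descriptions over class means that share libraries. For Foxp3 they were Neb (r = 0.82), Lrrc32 (0.78) and Sv2c (0.77), and for Lrrc32 they were Foxp3 (0.78), Arl5a (0.71) and Oaz2 (0.66). Il2ra was most like Socs2 (0.85), Areg (0.79) and Dctn4 (0.77). Ikzf2 was most like Gm28112 (0.96), Hdgfl2 (0.89) and Cd27 (0.87), and Ikzf4 most like Itgb8 (0.87), F730043M19Rik (0.83) and Agfg1 (0.83). For Tnfrsf4 the genes were F730043M19Rik (0.94), Akap13 (0.87) and Tox2 (0.86), and for Tnfrsf18 Unc13d (0.94) and Ppm1b (0.92). The nearest genes to Il10 were Itgav (0.77), Gapdh (0.71) and Oaz2 (0.69), and those to Ebi3 were Grb2 (0.87), Adprh (0.87) and Tctex1d2 (0.84).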

How the data were processed

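Values are raw UMI counts for every gene in every cell, as deposited, made with Cell Ranger 4.0 on mm10, per the submitters' processing notes. Cells with at least 500 UMIs, 200 genes and at most 10% mitochondrial UMIs were kept (46891), and the 7% with the highest Scrublet score per library (3279 cells) were removed as doublets, since the automatic threshold marked 0.0125% to 3.04%. Clustering used scanpy 1.11.5 (2000 variable genes, 30 components, Leiden resolution 1.5), giving 29 clusters. CD4 T clusters were kept apart, by a leading gene, because some held more markers of other classes. A non-immune cluster of 174 cells was left out. Sums of counts over the cells of a class in a library were tested with edgeR 4.0.16 (quasi-likelihood, TMM, filterByExpr, Benjamini-Hochberg over all genes of the class); DESeq2 1.42.0 was an alternative. The interaction was fitted on Treg-like cells and the sum of the 3 CD4 T clusters, with library as a term. Subgroup levels leave out libraries with fewer than 10 cells of the subgroup. The scripts were tested on simulated data. The members and lists were chosen with earlier results of these data known. Named are the members and, per list, any called gene and the 3 with the largest absolute log2 fold change. Some named genes are not reported here.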

Additional observations from a re-analysis of the deposited data

Results flagged for a closer look

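The 174 cells of the non-immune cluster, which entered no comparison, held UMIs of 3 members above the level of 3 UMIs, 1.88 CPM in these cells. Ikzf2 stood at 25.0 CPM (40 UMIs in 28 cells), Tnfrsf18 at 9.39 CPM (15 UMIs in 10 cells) and Lrrc32 at 4.38 CPM (7 UMIs in 4 cells). Foxp3 had no UMI there.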

How the results depend on the processing

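Of 170 values for the members in Treg-like cells under 19 alternative settings, 160 kept their direction and side of the threshold, 2 newly passed it and 8 reversed. The number of genes called in Treg-like cells, 7 as reported, was 228 with DESeq2, 4 with library kind as a term, 498 without a filter on low counts, 964 and 26 within the libraries of higher and lower UMI total, and 200 without cells holding UMIs of other cell types. It was 4 to 641 leaving out 1 library at a time, 271 without BrM 1 and 641 without MFP 1, and the cause was not tested. Members called leaving out 1 library were 0 to 2. The within-kind fits have 1 library at a site, assumed to vary like the others. Pairs called in other classes, 0 as reported, were 3 with DESeq2, 1 with doublets kept, 5 with library kind as a term, 4 without a filter, 7 and 10 within the higher and lower kinds, 0 to 5 leaving out 1 library, and 2 with the members left out of the variable genes, an alternative chosen after seeing the data. The Treg-like share of T cells, a BrM minus MFP difference of -0.047 percentage points, was 0.418 over all classified cells, 0.048 for thinned T cells with a Foxp3 UMI, and -1.48 to 1.80 leaving out 1 library. Members whose shares of positive cells did not overlap between sites numbered 2 after thinning and 0 to 3 leaving out 1 library. The log2 fold change of Tnfrsf4 became -0.013 without cells holding UMIs of other cell types, and that of Tnfrsf18 0.23 in the lower kind. That of Ebi3 became -0.18 with library kind as a term, -0.028 with members left out of the variable genes, -0.027 without scaling factors, -0.54 in the lower kind, and -0.37 to 0.46 leaving out 1 library. Differences in the share of positive cells were 1.09 for Ikzf2 and -4.47 for Tnfrsf18 after thinning, and, leaving out 1 library, -3.30 to 1.41 for Ikzf2, -0.12 to 4.79 for Tnfrsf18 and -10.5 to 3.14 for Foxp3. Samples with the same replicate number share only a number (correlations of -0.0799, 0.0205 and -0.0064), and with the replicate block 5 genes and 0 members were called.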
